A study of Homo sapiens with 3 samples.

Results

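Aminoacyl-tRNA synthetases, the enzymes that load each transfer RNA with its amino acid, were followed in T47D cells after a short exposure to estradiol or tamoxifen. The set holds 35 genes picked by name, 19 for the cytosolic enzymes and 16 for the mitochondrial ones. A gene was measured where at least 1 probe set (a group of short probes against one transcript) carried its symbol and no other. This held for 32 of the 35, 17 cytosolic and 15 mitochondrial, with 67 probe sets among the 41097 single-symbol probe sets of 19775 genes. MARS1, QARS1 and TARS2 were left without a value, since their 5 probe sets are annotated to a second gene as well.

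T47D is an established human luminal breast cancer line that carries the estrogen and progesterone receptors. The cells first spent 4 h in medium with 10% charcoal-stripped serum, which is low in steroids. They then received 0.1% ethanol (vehicle), 1 uM estradiol, the main natural estrogen, or 1 uM tamoxifen, which binds the same receptor and blocks or activates it depending on the tissue, for 3 h in the same stripped serum. The RNA of each treatment was read on 1 Affymetrix array of 54675 probe sets. With 1 array per group there are no replicates, hence neither p-values nor SDs, and this number of arrays sets the limit on precision. In bulk RNA, fewer cells of a kind and less RNA per cell cannot be told apart.

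The deposited values are log2 values around 0, taken as centred for each probe set on a centre that is not stated. They therefore hold differences between arrays and no expression levels. For the same reason the 9 luminal marker genes, although measured, could not be checked as levels. Differences are given relative to the median of all genes, which stood at -0.0057 when vehicle was subtracted from estradiol, at 0.10 when it was subtracted from tamoxifen, and at 0.11 between the treated arrays (tamoxifen less estradiol). Values of single arrays have the first of these taken off for estradiol and the second for tamoxifen. A gene's difference is the median over its probe sets, a fold is 2 to the power of it, and 2-fold equals a log2 difference of 1. The log base is that of the RMA method named by the submitters and could not be checked on centred values.

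Each of these enzymes recognises one amino acid, with the exception of EPRS1, a fused enzyme for glutamate and proline. Cytosolic and mitochondrial protein synthesis mostly use separate nuclear genes, but GARS1 and KARS1 supply both compartments. Several cytosolic enzymes (EPRS1, IARS1, KARS1, LARS1, MARS1, QARS1 and RARS1 in this set) sit in the multi-synthetase complex with the scaffold proteins AIMP1, AIMP2 and EEF1E1. Many cytosolic synthetase genes are also known targets of ATF4, the transcription factor that raises amino acid supply when cells are starved or stressed. ATF4 binds the C/EBP-ATF response element, whose common core is TGATGCAA.

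This core was searched on both strands of RefSeq promoter windows (GRCh38.p14, 250 bases before to 50 after each start site), which were held for 30 of the 35 genes. No window was matched for AARS2, LARS1, VARS1, VARS2 and YARS1. The core was found in 6 of the 30, all of them among the 16 cytosolic genes with a window, and in 0 of the 14 mitochondrial ones. Of all 27305 genes with a window, 1.08% held it (0.866% of the 35116 windows). The 6 stretches are shown because they hold the letters of the core that ATF4 is known to bind. Each is given 5′ to 3′ on the strand of its gene, with the match in capitals.
AARS1: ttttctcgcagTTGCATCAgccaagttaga
CARS1: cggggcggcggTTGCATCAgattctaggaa
IARS1: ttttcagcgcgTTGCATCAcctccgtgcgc
MARS1: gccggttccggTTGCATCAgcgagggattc
NARS1: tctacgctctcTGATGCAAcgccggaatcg
TARS1: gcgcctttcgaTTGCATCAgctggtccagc

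The AARS1 stretch lies at chr16:70289675-70289704 on the minus strand, and its match runs from base -187 to -180, counted from the start site with the first transcribed base as 1. In IARS1 (chr9:92293692-92293721, minus strand) the match runs from -13 to -6. It spans the start site of CARS1 (chr11:3057407-3057436, minus strand, -2 to 6) and of MARS1 (chr12:57488053-57488082, plus strand, -4 to 4). In TARS1 (chr5:33440956-33440985, plus strand) and NARS1 (chr18:57621804-57621833, minus strand) it lies just inside the transcript, at 3 to 10 and 15 to 22. With any base as the sixth letter (TGATGNAA, which includes every match above) GARS1 and the mitochondrial YARS2 were added, against 4.46% of all genes. The GARS1 stretch, chr7:30594834-30594863 on the plus strand, has its match at -33 to -26.
GARS1: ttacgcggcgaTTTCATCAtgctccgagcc

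A match is a run of letters and not a measured binding site. Other motifs searched on both strands were CCAATCAG, a CCAAT box, in AARS1, IARS1, SARS2 and WARS1 (4.75% of all genes), and the core of the interferon-stimulated response element in EARS2 and WARS1 (4.38%). WARS1 is known as an interferon-induced synthetase. Its match to that core, in capitals, lies at chr14:100375384-100375413 on the minus strand, from -55 to -46 of one of its annotated start sites.
WARS1: ttttcagaaggGAAACTGAAAgaaagaggg

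The first question was how the synthetase genes stood on the estradiol array against vehicle. YARS1, the tyrosine enzyme, was 2.47-fold lower, and was the 1 member at least 2-fold lower. EPRS1, for glutamate and proline, was 2.22-fold higher, and MARS2, the mitochondrial methionine enzyme, 3.29-fold higher. These 3 are 9.38% of the 32 measured members, against 3.31% of all genes past 2-fold in this comparison (1.62% higher and 1.68% lower). The median of the members was -0.20, with 19 below the all-gene median and 13 above it.

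Cytosolic members lay lower than mitochondrial ones, at medians of -0.34 and -0.12, with ranges that overlap over most of their width. At a cutoff of 1.5-fold, 6 members were lower, which is 18.8% against 8.74% of all genes, and 5 of these 6 were cytosolic. They were YARS1, FARSA (the catalytic subunit of the phenylalanine enzyme, -0.75), GARS1 (glycine, -0.73), SARS1 (serine, -0.70), AARS1 (alanine, -0.67) and the mitochondrial PARS2 (proline, -0.65). On the higher side, EPRS1, MARS2 and IARS2 (mitochondrial isoleucine enzyme, 0.73) passed 1.5-fold, which is 9.38% against 6.42% of all genes. IARS1, its cytosolic counterpart, stood just inside that limit at 0.58.

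**Figure D1:**
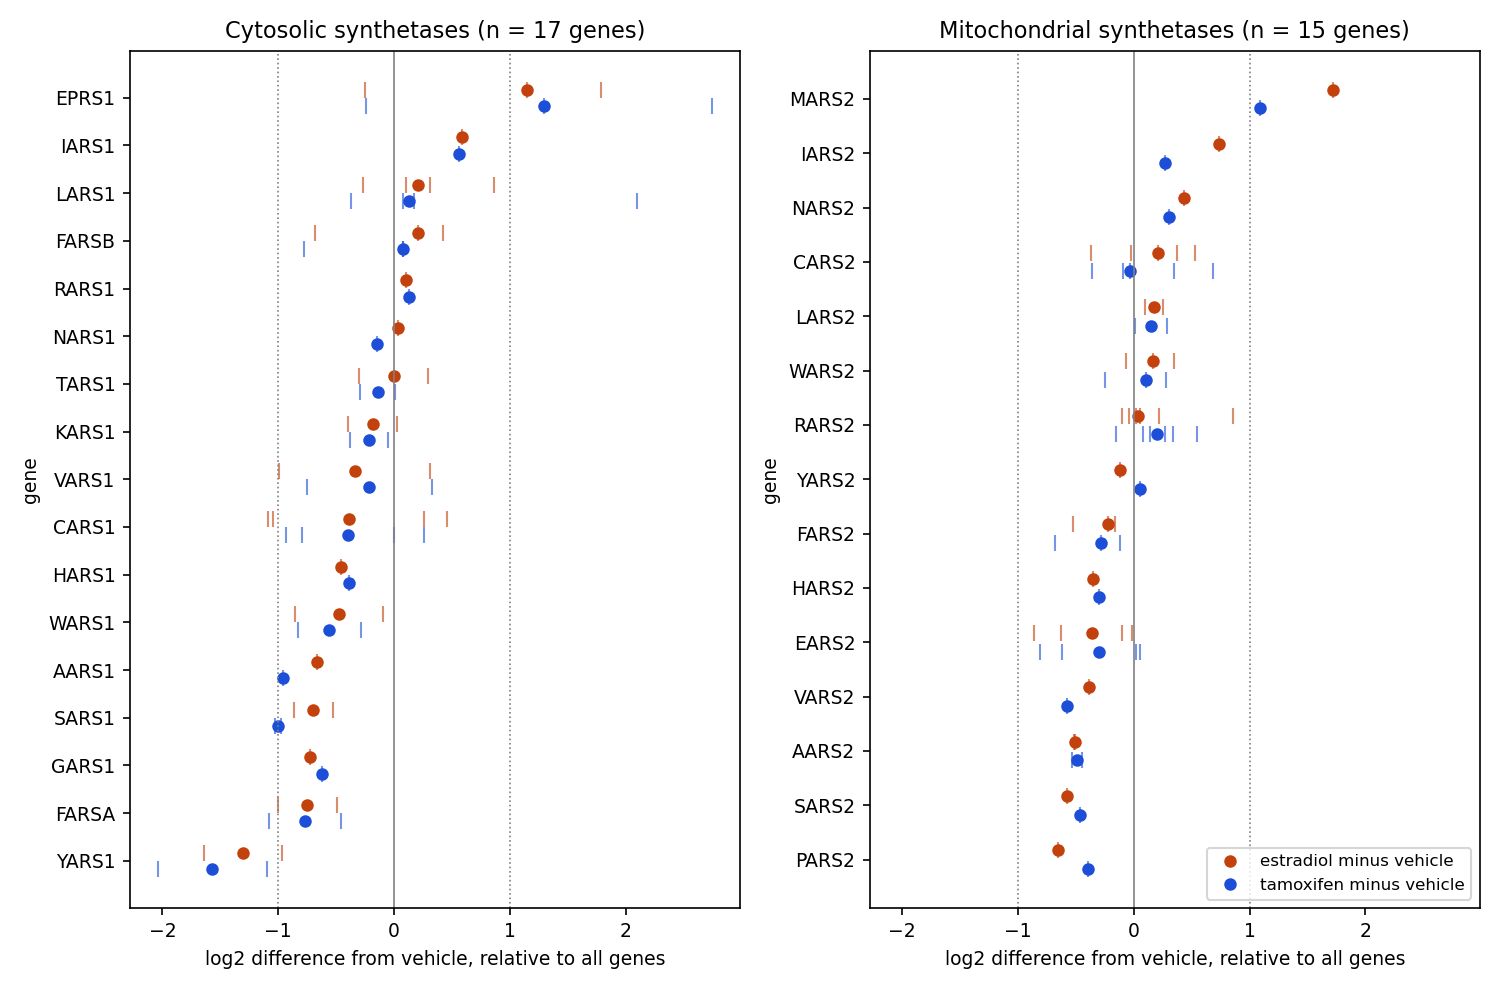
Log2 difference from vehicle, relative to all genes, for the 17 cytosolic (left) and 15 mitochondrial (right) synthetase genes, with estradiol in orange and tamoxifen in blue. Dots are gene values (medians over probe sets), ticks are single probe sets and dotted lines mark 2-fold. YARS1 lies lowest on the left, and the ticks of EPRS1 and LARS1 fall on both sides of 0.

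The tamoxifen array was compared with the same vehicle array. YARS1 was again the lowest member at 2.97-fold lower, and SARS1 was 2.01-fold lower. EPRS1 was 2.45-fold and MARS2 2.12-fold higher. These 4 are 12.5% of the members, against 3.43% of all genes (1.65% higher and 1.79% lower). AARS1, 1.94-fold lower, did not reach the 2-fold limit that SARS1 just passed. As deposited, without subtraction of the all-gene median, SARS1 read -0.90 and was no longer past 2-fold.

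The members' median for tamoxifen was -0.21, with 20 below and 12 above the all-gene median. The cytosolic median was -0.22 and the mitochondrial one -0.03. At 1.5-fold, 5 members were lower (YARS1, SARS1, AARS1, FARSA at -0.77 and GARS1 at -0.62), all cytosolic, which is 15.6% against 8.87% of all genes. The 2 higher ones at that cutoff, EPRS1 and MARS2, are 6.25% against 6.35% of all genes. Since both treatments were set against the same vehicle array, the likeness of their member values is no independent evidence for either.

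Probe set values show which of these differences are carried by more than 1 measurement. The first YARS1 probe set read 1.08 on the vehicle array, -0.56 with estradiol and -0.96 with tamoxifen. The second read 0.32, -0.65 and -0.78 in the same order. Both therefore placed the vehicle array highest and the tamoxifen array lowest.

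SARS1 had the same order in both of its probe sets. The values were 0.20 on vehicle, -0.67 with estradiol and -0.83 with tamoxifen for one, and 0.66, 0.13 and -0.32 for the other. AARS1 was read by a single probe set, at 0.32 on vehicle, -0.35 with estradiol and -0.64 with tamoxifen. GARS1, also on a single probe set, read 0.39, -0.33 and -0.23, so that here the estradiol array was the lowest. In all 4 genes the vehicle array was the highest.

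FARSA, whose product pairs with that of FARSB to form the phenylalanine enzyme, had values of 0.20, -0.80 and -0.88 in one probe set and -0.0068, -0.50 and -0.46 in the other. The 3 FARSB probe sets did not share a direction, from -0.68 to 0.42 for estradiol and from -0.77 to 0.078 for tamoxifen. The 2 subunits of one enzyme thus differed, at -0.75 and 0.21 for estradiol, but 1 FARSB probe set lay as low as FARSA. With probe sets averaged instead, FARSB read -0.02 for estradiol and -0.21 for tamoxifen.

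CARS1, the cysteine enzyme, split into opposite pairs of probe sets. One pair was at least 2-fold lower with estradiol, from 0.70 on vehicle to -0.38 and from 0.52 to -0.53, and lower with tamoxifen at -0.09 and -0.42. The other pair was higher with estradiol, from -0.12 to 0.15 and from 0.06 to 0.52, and read 0.14 and 0.06 with tamoxifen. The gene value of -0.39 for estradiol and -0.40 for tamoxifen is the midpoint of these pairs and describes neither. Which transcript or gene part each probe set reads was not tested.

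The higher value of EPRS1 rests on 2 of its 3 probe sets. One read -0.21 on vehicle, 1.57 with estradiol and 2.54 with tamoxifen, and another -0.24, 0.91 and 1.05. The third went the other way by a small amount, at 0.11, -0.14 and -0.13. Averaging the probe sets gave 0.90 for estradiol, which is inside 2-fold. All 3 have the suffix _s_at, which marks probes that can match several transcripts.

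LARS1, the leucine enzyme and a leucine sensor of the mTORC1 pathway, had 1 deviating probe set of 4. It read -0.09 on vehicle, 0.77 with estradiol and 2.01 with tamoxifen, while the other 3 stayed between -0.37 and 0.31 in both comparisons with vehicle. The gene value was accordingly small, 0.21 for estradiol and 0.13 for tamoxifen. MARS2 has 1 probe set, at -0.36 on vehicle, 1.36 with estradiol and 0.73 with tamoxifen, and so no second reading. The plot of probe sets by array shows these opposite courses.

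**Figure D2:**
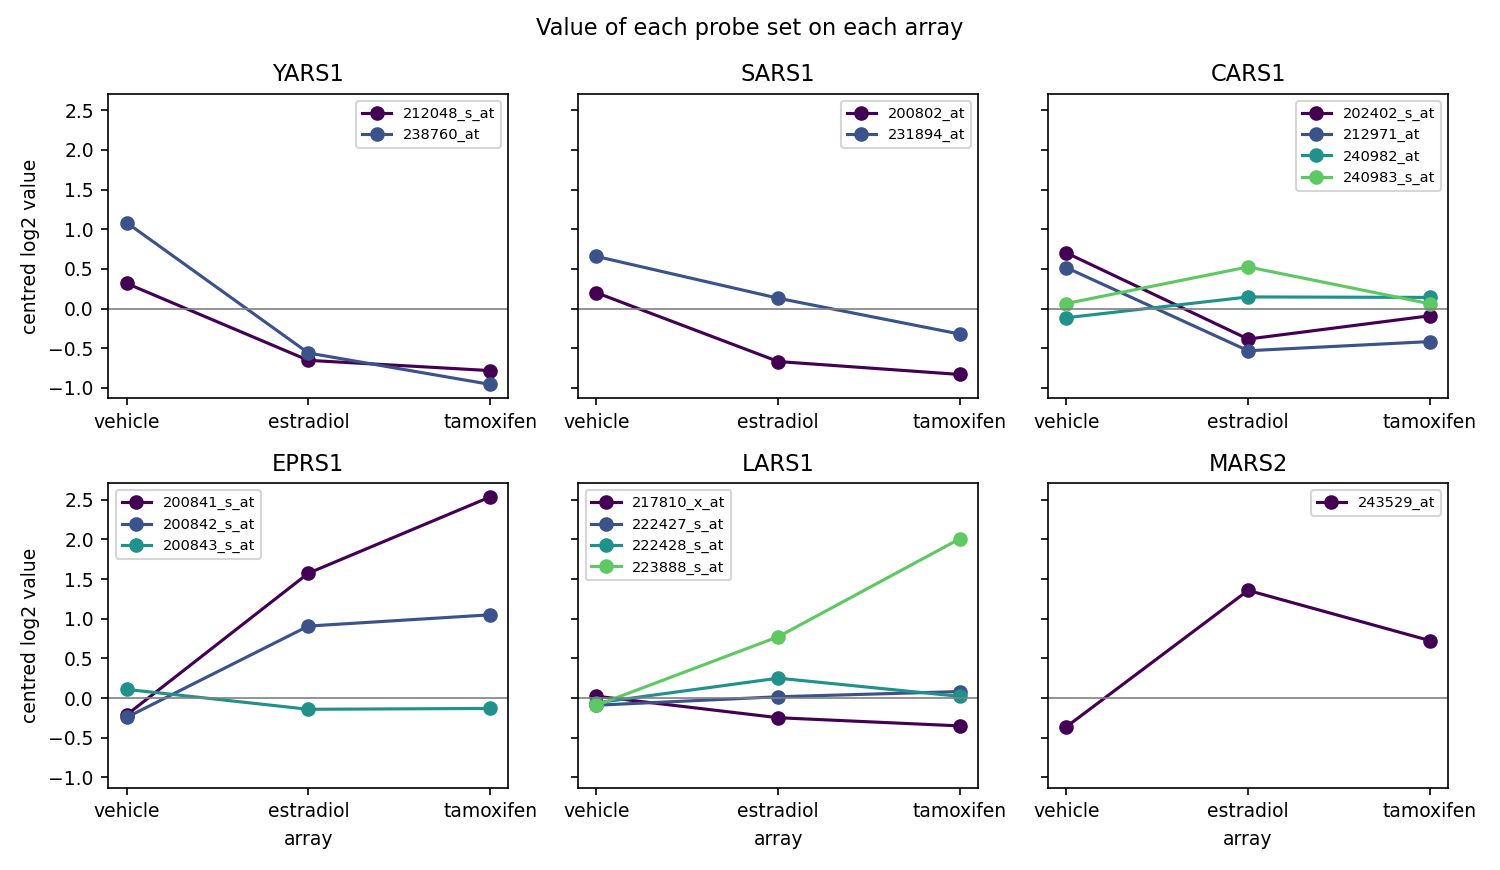
Centred log2 value of each probe set (lines, named by probe set) on the vehicle, estradiol and tamoxifen arrays for 6 synthetase genes. Both probe sets of YARS1 and of SARS1 descend from vehicle, whereas probe sets of CARS1, EPRS1 and LARS1 run in opposite directions.

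Of the 67 member probe sets, 7 (10.4%) were past 2-fold for estradiol, 3 higher and 4 lower, against 6.23% of all single-symbol probe sets (3.9% higher and 2.33% lower). For tamoxifen it was 8 (11.9%), 4 in each direction, against 6.92% (4.29% higher and 2.62% lower). Members with several probe sets numbered 18, and all probe sets of a gene lay on the same side of the all-gene median in 8 of them (44.4%) for estradiol, close to the 45.2% found over all 10523 genes with several. The median distance between the highest and lowest probe set was 0.72 in the members and 0.52 in those genes. The differences of most members are smaller than this distance.

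Among the other cytosolic enzymes, WARS1, for tryptophan, had values of -0.47 for estradiol and -0.56 for tamoxifen. Its probe sets lay on the same side but unequal, at -0.09 and -0.85 for estradiol. HARS1, for histidine, read -0.46 and -0.39. VARS1, for valine, read -0.34 and -0.21 as the midpoint of probe sets at -0.99 and 0.31 for estradiol. KARS1, for lysine, read -0.18 and -0.22. TARS1 (threonine), NARS1 (asparagine) and RARS1 (arginine) lay between -0.15 and 0.13 in both comparisons, near the all-gene median. The TARS1 value is the midpoint of probe sets at -0.30 and 0.29 for estradiol.

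Enzymes of the multi-synthetase complex had higher medians than the free cytosolic ones, with values that overlap. Of the 5 measured complex members, 4 were above the all-gene median in each comparison, with medians of 0.21 for estradiol and 0.13 for tamoxifen. They were EPRS1, IARS1 (0.58 and 0.56), LARS1 and RARS1, and KARS1 was the one below. Of the 12 enzymes outside the complex, 10 were below for estradiol and 11 for tamoxifen, with medians of -0.46 and -0.48. FARSB, NARS1 and TARS1, all outside the complex, lay above KARS1 in both comparisons. The split has no test, and the EPRS1 and LARS1 values vary by probe set as given above. EPRS1, IARS1 and LARS1 have no probe set without the suffix _s_at or _x_at. Without such probe sets KARS1 (0.02 and -0.06) and RARS1 (0.09 and 0.12) are the complex members left. AIMP1, the 1 scaffold gene measured of 3, read 0.35 and 0.27.

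The enzymes are also divided by the fold of their catalytic core. Class II members, here AARS1, FARSA, FARSB, GARS1, HARS1, KARS1, NARS1, SARS1 and TARS1, had medians of -0.46 for estradiol and -0.39 for tamoxifen, with 7 and 8 of 9 below the all-gene median. The 7 measured class I members had medians of -0.34 and -0.21, with 4 of 7 below in each comparison. EPRS1 joins a core of each class and was left out of both. Both classes hold strongly low genes, SARS1 in the one and YARS1 in the other.

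Mitochondrial members were spread around the all-gene median, 8 below and 7 above in each comparison with vehicle. Besides PARS2, the low ones were SARS2 (serine, -0.57 for estradiol and -0.46 for tamoxifen), AARS2 (alanine, -0.51 and -0.49), VARS2 (valine, -0.39 and -0.58), EARS2 (glutamate, -0.36 and -0.30), HARS2 (histidine, -0.35 and -0.30) and FARS2 (phenylalanine, -0.22 and -0.28). The 2 AARS2 probe sets differed by 0.01 for estradiol. Those of EARS2, 4 in number, were unequal, from -0.86 to -0.01 for estradiol and from -0.81 to 0.06 for tamoxifen. Without _s_at and _x_at probe sets EARS2 read -0.10 and 0.0096. NARS2, for asparagine, was on the higher side at 0.43 and 0.31, as was LARS2, for leucine, at 0.18 and 0.15. WARS2, RARS2, CARS2 and YARS2 lay between -0.12 and 0.20 in both. Except for YARS2, with 1 probe set, these are medians over probe sets on both sides of the all-gene median. Those of CARS2 ran from -0.37 to 0.52 for estradiol and from -0.36 to 0.68 for tamoxifen. The RARS2 ones ran from -0.11 to 0.85 and from -0.15 to 0.55.

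For 11 amino acids both a cytosolic and a mitochondrial enzyme had a value, leaving aside phenylalanine with its 2 cytosolic subunits. Both partners lay on the same side of the all-gene median in 9 of the 11 for estradiol and in 8 for tamoxifen. Between the treated arrays, without the shared vehicle array, it was 6 of 11. Some of the shared sides rest on values near 0, such as 0.03 for NARS1 and for RARS2 with estradiol. The share among other gene pairs was not computed. AARS1 with AARS2, SARS1 with SARS2 and HARS1 with HARS2 were low together, and IARS1 with IARS2 high together. The widest gap was that of tyrosine, where YARS1 lay 1.19 below YARS2 for estradiol and 1.62 below for tamoxifen.

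The histidine pair are close neighbours, transcribed in opposite directions from start sites that lie on either side of a stretch of 84 bases. HARS1 read 0.03 on vehicle, -0.42 with estradiol and -0.35 with tamoxifen, and HARS2 0.09, -0.26 and -0.22, each on a single probe set. Their differences from vehicle were -0.46 and -0.35 for estradiol and -0.39 and -0.30 for tamoxifen, close to each other. This closeness was not particular to the histidine pair. Cytosolic minus mitochondrial gaps for estradiol were 0.03 for leucine and 0.07 for arginine, against -0.10 for histidine. The stretch between the start sites of HARS1 and HARS2, chr5:140691371-140691454 of GRCh38.p14 on the plus strand, is shown because it adjoins both. Capitals mark its 2 matches, one at each end, to CCGGAAGT, a core bound by ETS family factors, searched on both strands and found in 4.14% of all promoter windows.
HARS1 to HARS2: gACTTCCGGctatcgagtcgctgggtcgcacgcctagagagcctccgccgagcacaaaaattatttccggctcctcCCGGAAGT

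The synthetases known as ATF4 targets were set against the remaining cytosolic ones. The list holds AARS1, CARS1, EPRS1, GARS1, IARS1, LARS1, MARS1, NARS1, SARS1, TARS1, WARS1 and YARS1. Of the 11 measured, 7 were below the all-gene median for estradiol and 8 for tamoxifen, with medians of -0.39 and -0.40. The 6 others had medians of -0.26 and -0.21, with 4 of 6 below in each. The list thus includes the lowest member, YARS1, and the highest cytosolic one, EPRS1.

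The vehicle array itself read high in part of this list. As deposited, 5 of the 11 (YARS1 at 0.70, SARS1 at 0.43, GARS1 at 0.39, AARS1 at 0.32 and CARS1 at 0.29, medians over probe sets) exceeded the 95th percentile of all genes on that array, which was 0.26. None of the 6 other cytosolic genes and 0 of the 15 mitochondrial ones did. MARS2 was low there, at -0.36. These values are relative to a centre whose arrays are not known, so they give no level, and they enter both differences from vehicle.

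Genes with the TGATGCAA core did not share a direction. For estradiol, AARS1 read -0.67, CARS1 -0.39, TARS1 -0.0030, NARS1 0.03 and IARS1 0.58. GARS1, with another base as the sixth letter, read -0.73. The CARS1 and TARS1 values are midpoints of probe sets that lay on both sides of the all-gene median.

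Genes that feed or follow the synthetases were described from further lists. In the ATF4 pathway list, 9 of 16 genes were at least 2-fold lower for each treatment, against 1.68% (estradiol) and 1.79% (tamoxifen) of all genes. The medians were -1.17 and -1.08, with 5 genes above the all-gene median for estradiol and 3 for tamoxifen. ATF4 itself, on 1 probe set, read -1.13 in both comparisons. Its partner CEBPB was at -1.66 and -1.80, the feedback inhibitor TRIB3 at -1.21 and -1.03, and PPP1R15A, which restores translation initiation, at -1.85 and -1.77. The other genes past 2-fold lower were CHAC1, DDIT3, INHBE, SESN2 and DDIT4, from -3.70 to -1.57 over both comparisons, and STC2 was higher at 1.08 for estradiol. These are medians over probe sets. The 2 of TRIB3 lay at -1.64 and -0.78 for estradiol and at -1.48 and -0.57 for tamoxifen. ATF3, inside 2-fold by its median, had 3 probe sets, from -2.97 to -0.16 for estradiol and from -2.94 to 0.07 for tamoxifen. On the vehicle array, 11 of the 16 genes exceeded the 95th percentile of all genes. The medians of the synthetases known as ATF4 targets and of the other cytosolic ones both lay on the same side as that of this list and nearer to 0.

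Amino acid synthesis genes had medians of -0.62 for estradiol and -0.60 for tamoxifen, with 7 and 8 of 11 below. Past 2-fold were CBS, of the transsulfuration pathway, at -1.08 for estradiol and PSPH, the last enzyme of serine synthesis, at -1.12 for tamoxifen. The 3 PSPH probe sets did not share a direction, from -1.35 to 1.28 for estradiol and from -1.40 to 0.63 for tamoxifen. Amino acid transporters had medians of -0.23 and -0.21 and 3 of 11 at least 2-fold lower in each comparison, against 1.68% and 1.79% of all genes. SLC3A2, the shared heavy chain of several transporters, read -1.66 and -1.94, and SLC1A4, a neutral amino acid transporter, -1.24 and -1.16. SLC1A5, a glutamine transporter, was 2.33-fold lower for estradiol and 1.99-fold lower for tamoxifen, and SLC7A11, the cystine transporter, read -0.90 and -1.31. The 3 SLC7A11 probe sets lay on both sides, from -1.03 to 0.11 for estradiol and from -1.73 to 0.13 for tamoxifen. Those of SLC1A4 were all lower but unequal, from -1.61 to -0.25 for tamoxifen.

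**Figure D3:**
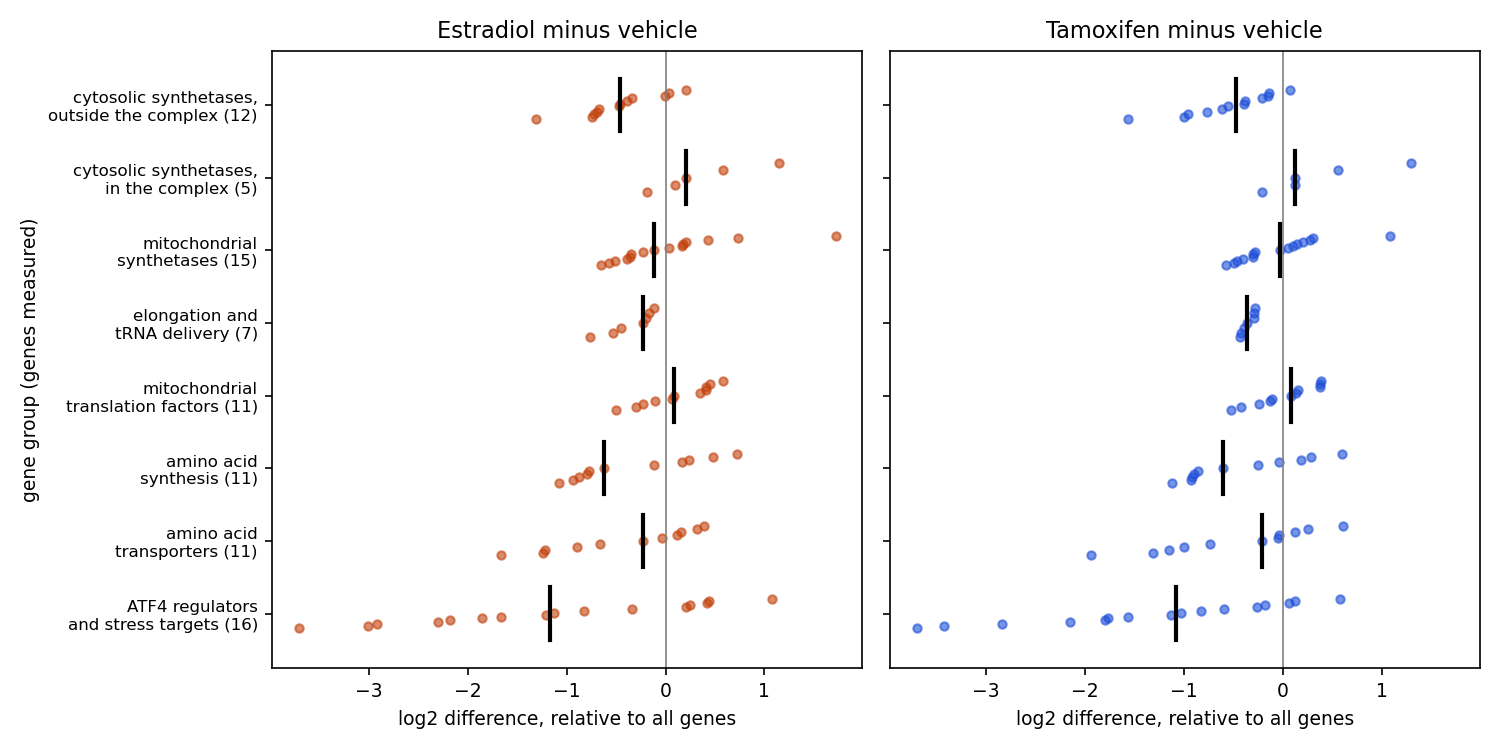
Log2 difference of estradiol (left) and tamoxifen (right) from vehicle, relative to all genes, for members of 8 gene groups, with the number of genes measured in brackets. Points are genes and black bars are group medians. Cytosolic synthetases outside the complex have medians of -0.46 and -0.48, between those of the ATF4 list and the all-gene median at 0.

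Downstream of charging, 7 genes of cytosolic elongation and transfer RNA export were measured, and all 7 lay below the all-gene median in both comparisons, none past 2-fold. Their medians were -0.23 and -0.36. For estradiol they ran from EEF1A2, an isoform of the factor that delivers charged transfer RNA, at -0.76, to its paralogue EEF1A1 at -0.12. For tamoxifen they ran from EIF5A at -0.43 to EEF2, the translocation factor, at -0.28. These gene values are medians, and single probe sets lay above the all-gene median in some of the genes. The highest probe sets of EEF1A1, EEF1D and EIF5A read 0.12, 0.22 and 0.31 for estradiol. For tamoxifen those of EEF1D and EIF5A read 0.41 and 0.37. Mitochondrial translation factors had medians of 0.09 and 0.09. They ran from GATC (-0.51 and -0.53), a subunit of the mitochondrial amidotransferase, to TSFM (0.58 and 0.39), an elongation factor.

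Of 6 genes for transfer RNA editing and selenocysteine synthesis, TRNT1, which adds the CCA end that synthetases charge, was 2.41-fold higher for estradiol (1.27) and read 0.89 for tamoxifen. The list medians were 0.28 and 0.10. Interferon genes, listed because of WARS1, had medians of 0.02 and -0.01 over 6 genes. IRF1, an interferon regulatory factor, was low at -2.55 and -2.06, and GBP1, a guanylate-binding protein, read 1.15 and 0.82.

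Every comparison with vehicle rests on 1 array that also differed from both treated arrays in control probe sets. As deposited, 18S ribosomal RNA (median of its 3 control probe sets) read 1.86 above vehicle for estradiol and 1.96 above it for tamoxifen. The 3' minus 5' signal of ACTB differed from vehicle by -0.78 and -0.77, and that of GAPDH by -0.53 and -0.54. The part of these differences in the synthetase values was not tested. Between the treated arrays the 18S value was 0.04 and the ACTB value 0.0058.

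Tamoxifen was therefore also compared with estradiol directly, without the vehicle array. No member was at least 2-fold different, against 0.228% of all genes (0.0253% higher and 0.202% lower). At 1.5-fold 1 of 32 was lower, which is 3.12% against 1.22% of all genes, and 2.11% of all genes passed in either direction. The members' median was -0.03, that of the cytosolic ones -0.03 and that of the mitochondrial ones -0.02. The low cytosolic genes of the earlier comparisons were somewhat lower with tamoxifen, SARS1 at -0.31, AARS1 at -0.29 and YARS1 at -0.27, while GARS1 read 0.10 and FARSA -0.03. As deposited, without centring, SARS1, AARS1 and YARS1 read -0.20, -0.18 and -0.15, and 8 of the 32 members had the opposite sign in this comparison, FARSA among them.

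MARS2 had the most negative value, -0.64, which was 1.56-fold lower with tamoxifen than with estradiol, and IARS2 followed at -0.47. Both are mitochondrial enzymes on a single probe set, and both were above vehicle on the 2 treated arrays. PARS2 was the highest gene at 0.25. Of the 67 probe sets, 1 was past 2-fold (1.49%, against 0.457% of all, 0.134% higher), the LARS1 probe set named above, at 1.23. The EPRS1 probe set that was highest against vehicle followed at 0.96, whereas the other probe sets of these genes ran from -0.24 to 0.14.

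Between the treated arrays the other lists held no gene past 2-fold. ATF4 read -0.01 and the ATF4 list had a median of -0.01, with members from -0.70 to 0.60. The amino acid synthesis median was -0.07 and the transporter median -0.04. EEF1A2 was the highest elongation gene at 0.40 and EEF1A1 the lowest at -0.19. Among mitochondrial factors MTRF1, a release factor, was lowest at -0.42 and MTIF3, an initiation factor, highest at 0.28.

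**Figure D4:**
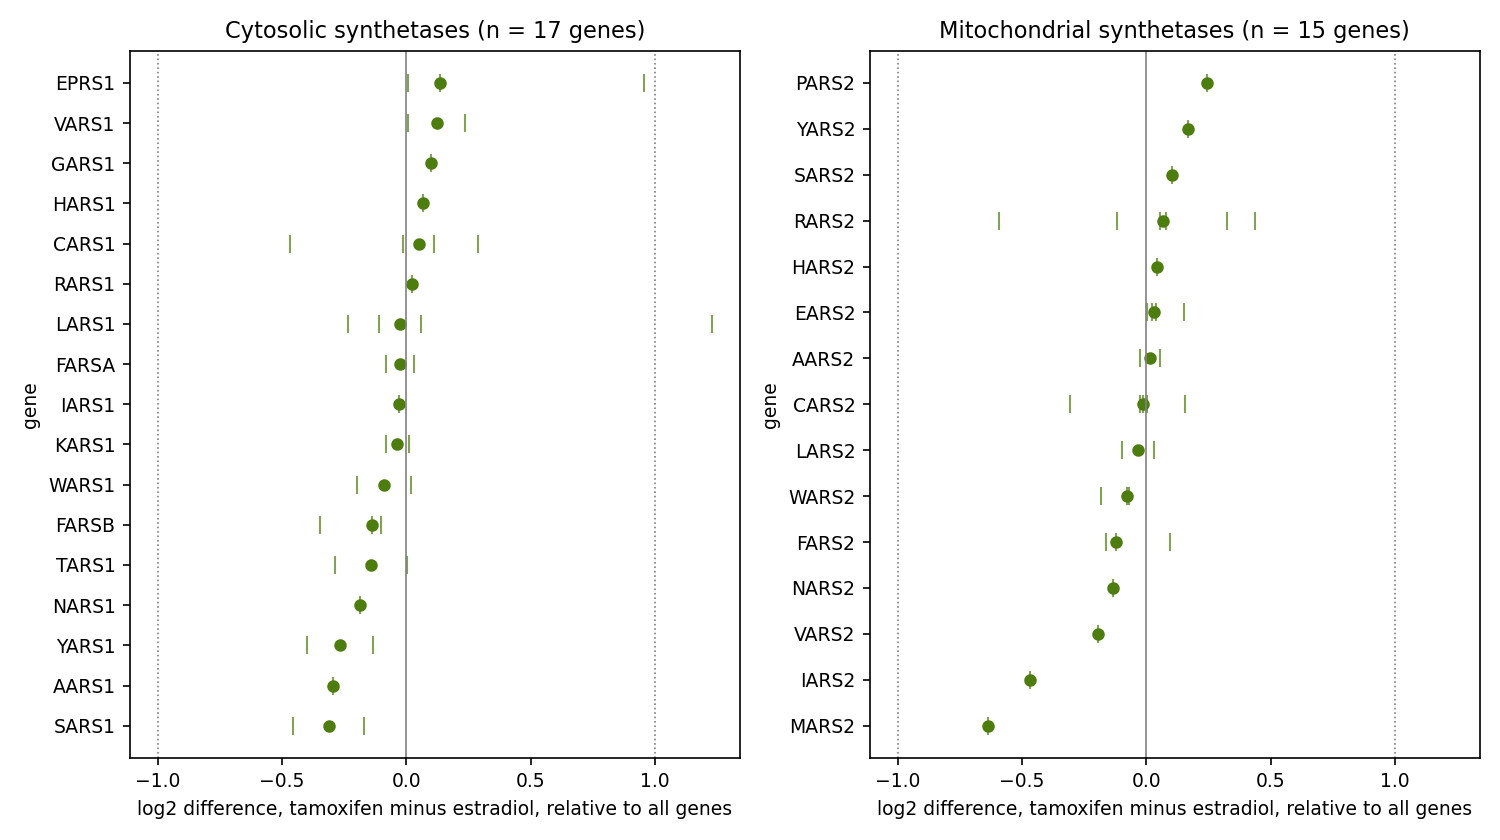
Log2 difference of tamoxifen minus estradiol, relative to all genes, for cytosolic (left) and mitochondrial (right) synthetase genes. Dots are gene values, ticks are single probe sets and dotted lines mark 2-fold. All dots lie inside the dotted lines, MARS2 is lowest at -0.64, and a single LARS1 probe set lies beyond 2-fold.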

How the data were processed

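RNA of T47D cells was measured on 3 Affymetrix arrays, grouped by the treatment in the labels. The authors deposited log2 values made with RMA (background correction, quantile normalization and probe summary), per the submitters' processing notes. They carry both signs around 0, which was taken as a centring of each probe set that no label records. Some member probe sets, among them 1 of FARSA, were negative on all 3 arrays. Differences of dim probe sets come out too small under RMA. Brightness was lost with the centring, and so no filter on it was applied. For software version and genome build, the sources used here give nothing.

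Gene symbols were those of the platform annotation. Of 41097 single-symbol probe sets, 41043 matched a gene table of GRCh38.p14 by Entrez identifier, used for names alone. The 1801 probe sets with several symbols were left out. Gene values, the all-gene median and counts were computed with pandas 2.3.3 and tested on simulated data. No test between groups was possible. FARSA, FARSB, GARS1 and KARS1 were counted as cytosolic. Members and lists were chosen with earlier results of these data known. All members are named, and of other lists those past 2-fold, else the highest and lowest. ATF3 is named as well because its probe sets were unequal. Motifs and amino acid pairs were added after the values were seen. Alternatives were no centring, dropping probe sets that end in _s_at or _x_at, means over probe sets, a 1.5-fold cutoff, leaving out FARSA with FARSB or GARS1 with KARS1 and, chosen after seeing the data, leaving out genes with 1 probe set.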

Additional observations from a re-analysis of the deposited data

How the results depend on the processing

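No paired analysis was possible because each group had 1 array. Of 75 group medians and counts recomputed, 59 stayed within 0.1 (medians) or 1.5 times (counts) of the reported value. Part of this tally was fixed in advance. Centring cannot change a cytosolic minus mitochondrial difference, and the estradiol centre of -0.0057 is too small to move a median by 0.1. Without centring, the tamoxifen minus vehicle medians were -0.11 (cytosolic) and 0.073 (mitochondrial), and for tamoxifen minus estradiol 0.086 and 0.0995, with 11 members below 0. Without _s_at and _x_at probe sets, cytosolic minus mitochondrial medians were -0.33 for estradiol and -0.38 for tamoxifen minus vehicle, and the cytosolic tamoxifen median -0.37. At 1.5-fold, 9, 7 and 1 members differed in the 3 comparisons (estradiol minus vehicle, tamoxifen minus vehicle, tamoxifen minus estradiol). Over the 18 members with several probe sets, 11, 12 and 12 lay below the median in that order, the mitochondrial estradiol median was 0.013 and the cytosolic minus mitochondrial one -0.37. Counts here fall because fewer genes enter; the cause of the other shifts was not tested. No synthetase past 2-fold changed sign under the alternatives that gave it a value; without _s_at and _x_at probe sets 27 members kept one, EPRS1, IARS1 and LARS1 not among them. Signal over background is unknown, which limits every small difference.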
